A study of Homo sapiens with 4 samples.

Results

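Long noncoding RNAs were followed in SCC1 and FaDu, 2 human cell lines of head and neck squamous cell carcinoma that had been given a siRNA against FOSL1 or a control siRNA for 48 h. FaDu cells came from a hypopharyngeal tumour. The siRNA target, FOSL1, encodes FRA1, which pairs with a JUN protein to form the transcription factor AP-1. The 4 groups were SCC1 with FOSL1 siRNA, SCC1 with control siRNA, FaDu with FOSL1 siRNA and FaDu with control siRNA, each with 1 RNA-seq library of total RNA, and all cells were grown in DMEM with 10% FBS. No difference therefore has a replicate check, and no test between conditions was made. The long noncoding RNAs were all genes in the deposited tables whose gene name holds "non-protein coding" or "antisense RNA", or whose symbol starts with LINC or is H19 or TINCR, leaving out names with "pseudogene". This took 79 of 1903 listed genes in SCC1 and 54 of 1545 in FaDu, 111 different genes of the 2770 listed in either line. By name, 66 of the 111 were antisense RNAs, 36 were long intergenic RNAs, and the other 9 were H19, TINCR, UCA1, CCAT1, CASC2, HCP5, HAR1A, DGCR11 and BLACAT1.

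Long noncoding RNAs are transcripts with no long reading frame. Many act in the nucleus on the transcription or chromatin of nearby genes, others bind proteins, mRNAs or microRNAs in the cytoplasm, and for most no role is known. H19 is transcribed from the maternal copy of an imprinted locus next to the growth factor gene IGF2, is abundant in the fetus and silenced in most adult tissues, and is the precursor of miR-675. TINCR is induced during terminal differentiation of epidermal keratinocytes, where its RNA binds the protein STAU1 and stabilises differentiation mRNAs. An antisense RNA is transcribed from the opposite strand of the gene in its name, and one called head to head starts beside that gene's own start and runs away from it.

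The class names come from the deposited tables and were checked against RefSeq (assembly GRCh38.p14), in which all 111 symbols matched a gene, 18 of them under another symbol. RefSeq now calls 101 of these genes lncRNA and 2 antisense RNA. It calls 5 protein-coding, namely BLACAT1, FAM83H-AS1, LINC00094, LINC00176 and TINCR, and 3 transcribed pseudogenes, namely ATE1-AS1, PSMD5-AS1 and ZNRD1-AS1. The rule therefore takes genes by name, and 8 of them no longer stand as noncoding RNA genes in that annotation.

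The tables hold only genes that passed the authors' own comparison, so nothing is said of how a gene outside them behaved. Effective library sizes, worked out from what 1 read is worth in each column, were 11280745 reads for SCC1 with FOSL1 siRNA, 13242163 for SCC1 with control siRNA, 10365774 for FaDu with FOSL1 siRNA and 11477600 for FaDu with control siRNA. Levels are in CPM, which scales the reads to a library size shared by all columns, and 1 read was worth between 0.0755 and 0.0965 CPM. A fold is the ratio of the CPM of the 2 libraries of a line, and the range in parentheses after it is its 95% exact binomial interval. Intervals and floors cover counting error only, and PCR copies cannot be separated from independent molecules here. FOSL1 itself had 3.99 CPM with FOSL1 siRNA against 133 CPM with control siRNA in SCC1, and 36.9 CPM with FOSL1 siRNA against 774 CPM with control siRNA in FaDu. Of 6 epithelial markers, SCC1 listed CDH1 and PERP, 1.90-fold and 1.98-fold higher after FOSL1 siRNA, and FaDu listed 0. Of 17 markers of fibroblasts, leukocytes and endothelium, SCC1 listed 0, while FaDu listed COL3A1 as 3.53-fold and POSTN as 2.10-fold lower and CD14 as 2.55-fold higher. Unlisted markers could not be checked in these tables. The part of these marker differences in the results below was not tested.

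In SCC1, 18 of the 79 long noncoding RNAs were higher after FOSL1 siRNA and 61 were lower. Of all listed genes in that table, 40.6% were higher and 59.4% lower, and among the long noncoding RNAs these shares were 22.8% and 77.2%. In FaDu, 17 of the 54 were higher and 37 lower, 31.5% and 68.5%, where 42.5% and 57.5% of all listed genes were. Dividing by the median ratio of the listed genes left 18 higher and 35 lower in SCC1, 22.8% and 44.3%, where 40.6% and 19.2% of all listed genes were. It left 17 higher and 28 lower in FaDu, 31.5% and 51.9%, where 42.5% and 22.1% of all listed genes were. That median lies among the lower genes, at a log2 ratio of -1.05 in SCC1 and -1.02 in FaDu. The smallest fold of a listed gene was 1.88 in both lines. The scaling therefore could not change the counts of higher genes and could only reduce those of lower ones. In bulk RNA, fewer cells that make a transcript and less of it per cell cannot be told apart.

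Differences of at least 4-fold were counted in 5 higher and 23 lower long noncoding RNAs in SCC1, where 8.30% and 10.4% of all listed genes had them. In FaDu they were counted in 7 higher and 17 lower, where 11.6% and 12.2% of all listed genes had them. The median log2 ratio was -1.58 for the long noncoding RNAs and -1.05 for all listed genes in SCC1, and -1.67 and -1.02 in FaDu. These RNAs also had few reads. The higher of the 2 levels had a median of 4.34 CPM for them and 23.6 CPM for all listed genes in SCC1, and 3.75 and 17.9 CPM in FaDu. In the plot of level and ratio, listed genes of low level have the widest spread of ratios, and the part of the low level in the larger median was not tested.

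**Figure D1:**
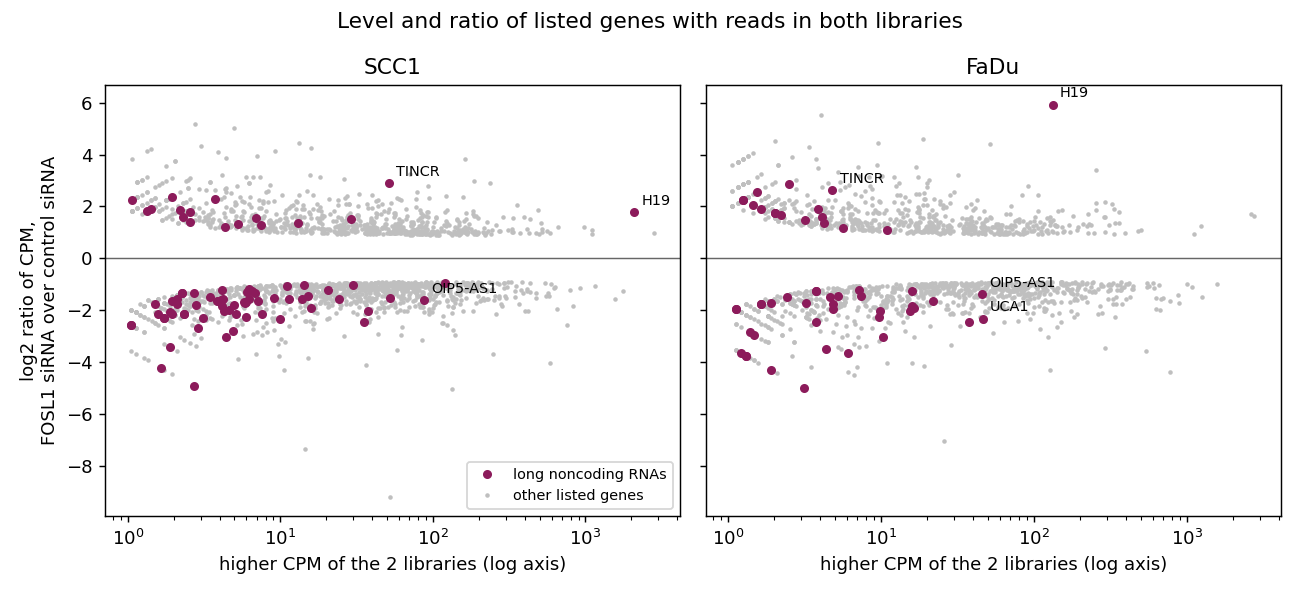
Each point is a listed gene with reads in both libraries of its line, SCC1 on the left and FaDu on the right, where the x axis is the higher of its 2 levels in CPM (log axis) and the y axis the log2 ratio of FOSL1 siRNA over control siRNA. Long noncoding RNAs, drawn as large points, lie mostly at low CPM, with medians of 4.34 CPM in SCC1 and 3.75 CPM in FaDu, and H19 has the highest level of them in both lines.

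In the authors' deposited table, an FDR under 0.05 was given to 5 higher and 19 lower long noncoding RNAs in SCC1, where 11.4% and 16.0% of all listed genes had it. In FaDu the authors' deposited table gave it to 3 higher and 17 lower, where 11.1% and 14.3% of all listed genes had it. Those values compare 2 libraries, not the conditions. A count test at an assumed dispersion of 0.05 gave p-values within 1% of the deposited ones for every listed gene. At an assumed dispersion of 0.16 it called 5 higher and 26 lower long noncoding RNAs in SCC1, where it called 25.4% of all listed genes, and 5 and 20 in FaDu, where it called 29.8%. At 0.4 it called 2 higher and 4 lower in SCC1, where it called 5.68% of all listed genes, and 1 and 9 in FaDu, where it called 8.03%.

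H19 had the largest read count of the long noncoding RNAs in the SCC1 table and was higher after FOSL1 siRNA in both lines. In SCC1 it had 2079 CPM (23457 reads) with FOSL1 siRNA and 602 CPM (7974 reads) with control siRNA, 3.45-fold higher (3.37 to 3.54). In FaDu it had 133 CPM (1377 reads) with FOSL1 siRNA and 2.18 CPM (25 reads) with control siRNA, 61.0-fold higher (41.1 to 94.6). In the authors' deposited table its FDR was 0.00842 in SCC1 and 2.73e-19 in FaDu. From low to high the levels were those of FaDu with control siRNA, FaDu with FOSL1 siRNA, SCC1 with control siRNA and SCC1 with FOSL1 siRNA. This order runs across 2 tables that may have been normalized separately. Both FaDu libraries lay below both SCC1 libraries, and H19 in FaDu after FOSL1 siRNA was under its level in the SCC1 control. Of the 22 long noncoding RNAs listed in both lines, H19 was the only one whose intervals did not overlap between the lines, where 22.6% of all 678 genes listed in both had such intervals. Intervals narrow with reads, and in the line with fewer reads H19 had 1402, against a median of 72 for the 22 and of 384.5 for the 678.

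The hairpin of miR-675 lies inside H19, and 4 of the 12 H19 transcripts in GENCODE 29 hold it whole. The microRNA itself was not measured. Its mature sequences are shown because they are the small RNA products that H19 can give, taken from RefSeq (GRCh38.p14, minus strand, chr11:1996800-1996822 and chr11:1996768-1996787), with the seed, bases 2 to 8, in capitals.
hsa-miR-675-5p: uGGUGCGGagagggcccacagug
hsa-miR-675-3p: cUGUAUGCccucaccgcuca
The seeds of the 2 arms differ.

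Of 29 genes of the H19 locus, other imprinted genes and IGF2 pathway partners, 2 were higher, 3 lower and 24 not listed in SCC1. The listed ones were 17.2% of the 29 in SCC1 and 13.8% in FaDu, near the 13.8% and 11.2% of all genes tested by the authors that are listed. A gene of the 29 need not have been tested. IGF2, the imprinted growth factor gene beside H19, had 14.9 CPM with FOSL1 siRNA and 2.49 CPM with control siRNA in SCC1, 5.98-fold higher (4.10 to 8.96). IGF2BP1, which encodes an RNA-binding protein of IGF2 mRNA, was 1.95-fold higher (1.82 to 2.10). IGF2 was thus higher in the same SCC1 library as H19, while it was not listed in FaDu. The imprinted genes SNRPN, MEST and PEG10 were 3.99-fold (3.24 to 4.95), 2.47-fold (1.98 to 3.12) and 2.23-fold (2.07 to 2.41) lower in SCC1. In FaDu, 1 of the 29 was higher, 3 were lower and 25 were not listed. The higher one was the imprinted adaptor gene GRB10, at 71.7 CPM with FOSL1 siRNA and 33.0 CPM with control siRNA, 2.17-fold (1.92 to 2.46). MEST was 2.31-fold lower (2.05 to 2.62) and PEG10 2.25-fold lower (1.63 to 3.13) in FaDu. The third lower gene in FaDu was IGF2BP2, at 2.12-fold (1.74 to 2.60). MEST and PEG10 were therefore lower in both lines in which H19 was higher.

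TINCR was higher in both lines by similar ratios from different levels. In SCC1 it had 51.6 CPM (582 reads) with FOSL1 siRNA and 6.95 CPM (92 reads) with control siRNA, 7.43-fold higher (5.95 to 9.36). In FaDu it had 4.82 CPM (50 reads) with FOSL1 siRNA and 0.784 CPM (9 reads) with control siRNA, 6.15-fold higher (2.99 to 14.2). The 2 intervals overlap. In the authors' deposited table its FDR was 5.68e-06 in SCC1 and 0.00574 in FaDu. Little of its sequence recurs elsewhere, with 2.26% of its 50-base words found in transcripts of other genes in GENCODE 29.

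Of 22 genes listed as TINCR partners or keratinocyte differentiation genes, 1 was higher, 2 were lower and 19 were not listed in SCC1, while 5 were higher, 2 lower and 15 not listed in FaDu. The listed ones were 13.6% of the 22 in SCC1 and 31.8% in FaDu, beside 13.8% and 11.2% of all tested genes, but a gene of the 22 need not have been tested. GRHL3, a transcription factor of epidermal differentiation, was higher in both lines, at 2.35-fold (1.76 to 3.15) in SCC1 and 7.75-fold (3.68 to 18.8) in FaDu. ALOXE3, a lipoxygenase of the epidermal barrier, was lower in both, at 13.1-fold (5.78 to 36.5) in SCC1 and 4.52-fold (2.18 to 10.5) in FaDu. Others that were higher in FaDu included ZNF750 at 5.54-fold (3.09 to 10.6), ALOX12B at 4.06-fold (1.07 to 22.7) and KLF4 at 2.37-fold (2.12 to 2.66). ZNF750 and KLF4 encode transcription factors of epidermal differentiation, and ALOX12B a second barrier lipoxygenase. KRT80, a keratin, was 1.97-fold lower (1.82 to 2.14) in FaDu, and UHRF1, which maintains DNA methylation, was 2.13-fold lower (1.99 to 2.29) in SCC1. Neither STAU1 nor DANCR was listed in either line. The genes of this list thus did not all share the direction of TINCR, since ALOXE3 was lower in both lines.

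In all, 22 long noncoding RNAs were listed in both lines, 27.8% of those in SCC1 and 40.7% of those in FaDu. All 22 had the same direction, 5 higher and 17 lower in both. Among all 678 genes listed in both lines, 96.6% had the same direction, so such agreement is not particular to these RNAs. The shared genes made up 35.6% of the SCC1 table and 43.9% of the FaDu table.

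**Figure D2:**
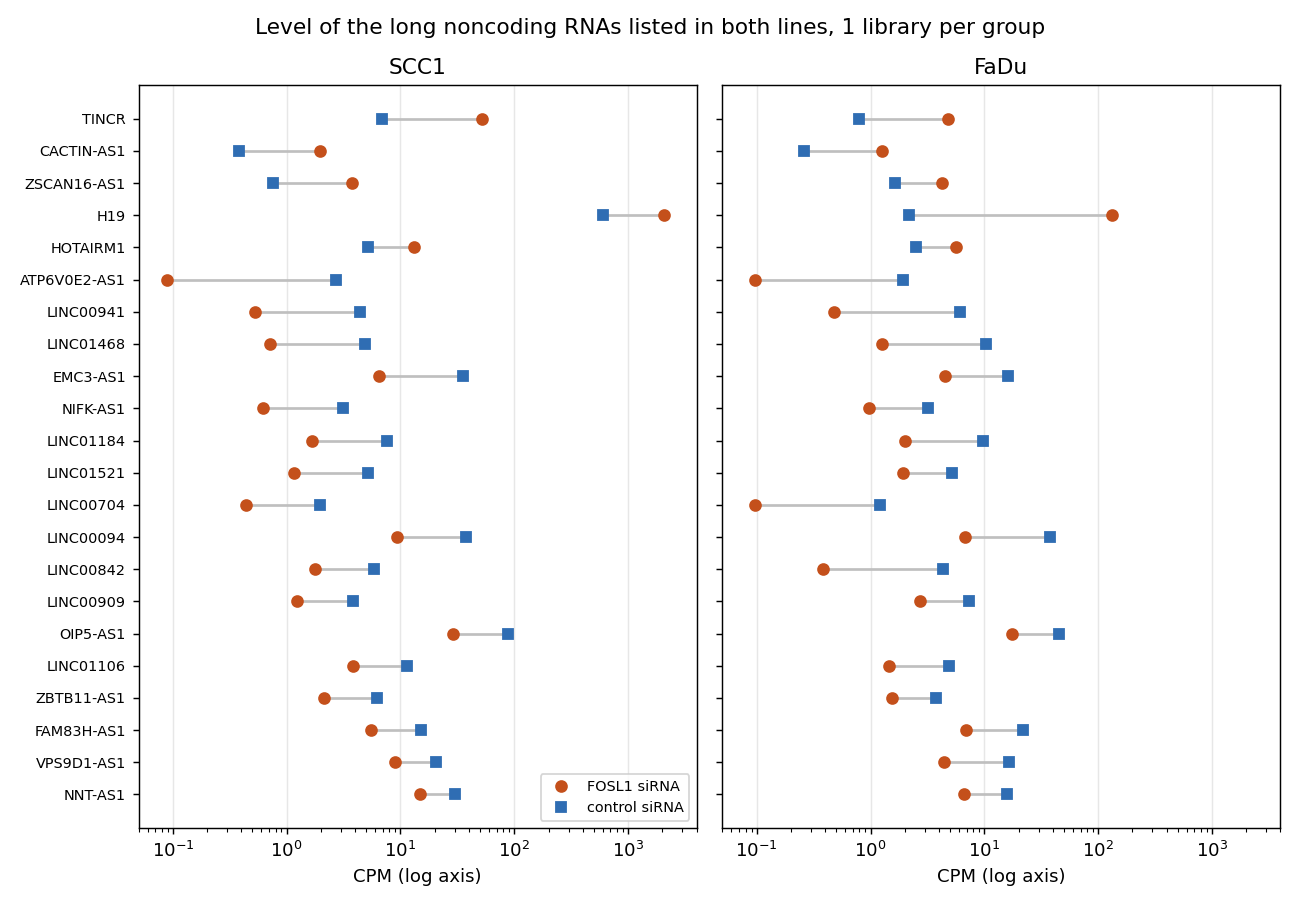
Level in CPM (log axis) of each of the 22 long noncoding RNAs listed in both lines, in the FOSL1 siRNA library (circles) and the control siRNA library (squares), with SCC1 on the left and FaDu on the right and 1 library per group. The circle lies to the right of the square for the upper 5 genes and to its left for the other 17 in both lines, and H19 spans the widest range, between 2079 CPM in SCC1 after FOSL1 siRNA and 2.18 CPM in FaDu with control siRNA.

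The other 3 that were higher in both lines were HOTAIRM1, CACTIN-AS1 and ZSCAN16-AS1. HOTAIRM1, transcribed from the HOXA cluster and known from myeloid differentiation, had 13.1 CPM with FOSL1 siRNA and 5.14 CPM with control siRNA in SCC1, 2.55-fold higher (1.90 to 3.46). In FaDu it had 5.69 CPM with FOSL1 siRNA and 2.53 CPM with control siRNA, 2.25-fold higher (1.42 to 3.64). ZSCAN16-AS1 was 4.93-fold higher (2.43 to 11.0) in SCC1 and 2.56-fold higher (1.47 to 4.65) in FaDu. CACTIN-AS1 was 5.17-fold higher (1.91 to 17.5) in SCC1 and 4.80-fold higher (1.32 to 26.3) in FaDu, but on 22 reads with FOSL1 siRNA against 5 with control siRNA in SCC1, and 13 with FOSL1 siRNA against 3 with control siRNA in FaDu. Its ratio is also uncertain because 45.7% of its 50-base words lie on the strand opposite to other transcripts, mainly of CACTIN.

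Among the 17 that were lower in both lines, LINC00941 had the largest ratio in each line of those with more than 3 reads in every library. LINC00941 has been described in several carcinomas. LINC00941 had 0.532 CPM (6 reads) with FOSL1 siRNA and 4.38 CPM (58 reads) with control siRNA in SCC1, 8.23-fold lower (3.56 to 23.4). In FaDu it had 0.482 CPM (5 reads) with FOSL1 siRNA and 6.10 CPM (70 reads) with control siRNA, 12.6-fold lower (5.17 to 40.1). LINC01468, which RefSeq calls LNCAROD, had 0.709 CPM (8 reads) with FOSL1 siRNA and 4.91 CPM (65 reads) with control siRNA in SCC1, 6.92-fold lower (3.31 to 16.7). In FaDu it had 1.25 CPM (13 reads) with FOSL1 siRNA and 10.3 CPM (118 reads) with control siRNA, 8.20-fold lower (4.61 to 15.9). Both RNAs had at most 13 reads with FOSL1 siRNA in either line.

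LINC00094, which RefSeq lists as the protein-coding gene BRD3OS, had enough reads for a narrow interval in both lines. It had 9.31 CPM (105 reads) with FOSL1 siRNA and 37.6 CPM (498 reads) with control siRNA in SCC1, 4.04-fold lower (3.27 to 5.04). The FaDu libraries had 6.75 CPM (70 reads) with FOSL1 siRNA and 37.5 CPM (430 reads) with control siRNA, 5.55-fold lower (4.30 to 7.25). Its control levels were close between the 2 lines, whose values may have been normalized separately. Of the 50-base words of LINC00094, 20.4% lie opposite to other transcripts, mainly of BRD3, which the intervals do not cover. LINC01184 was 4.48-fold lower (2.73 to 7.76) in SCC1 and 4.77-fold lower (2.98 to 8.02) in FaDu, and LINC01521 was 4.46-fold lower (2.44 to 8.79) in SCC1 and 2.71-fold lower (1.61 to 4.75) in FaDu. LINC00909 was 3.10-fold lower (1.69 to 6.07) in SCC1 and 2.74-fold lower (1.77 to 4.37) in FaDu. LINC00842 was 3.32-fold lower (2.01 to 5.73) in SCC1 and 11.3-fold lower (4.14 to 43.0) in FaDu, where it had 4 reads after FOSL1 siRNA. LINC01106 was 2.99-fold lower (2.12 to 4.30) in SCC1 and 3.37-fold lower (1.88 to 6.42) in FaDu, but 89.2% of its 50-base words are also in other transcripts of the same strand, mainly of LINC01123, so its value is uncertain.

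Of the antisense RNAs that were lower in both lines, OIP5-AS1, a conserved RNA that holds a site for miR-7, had the most reads. It had 28.9 CPM (326 reads) with FOSL1 siRNA and 88.0 CPM (1165 reads) with control siRNA in SCC1, 3.04-fold lower (2.69 to 3.45). The FaDu libraries had 17.6 CPM (182 reads) with FOSL1 siRNA and 45.5 CPM (522 reads) with control siRNA, 2.59-fold lower (2.18 to 3.08). EMC3-AS1 was 5.45-fold lower (4.25 to 7.07) in SCC1 and 3.54-fold lower (2.55 to 4.98) in FaDu. Apart from ATP6V0E2-AS1, the others were NIFK-AS1, FAM83H-AS1, VPS9D1-AS1, ZBTB11-AS1 and NNT-AS1, between 2.02-fold and 4.99-fold lower in SCC1 and between 2.38-fold and 3.73-fold lower in FaDu. NNT-AS1 in SCC1, at 2.02-fold (1.69 to 2.44), turned to slightly higher after dividing by the median ratio of the listed genes, which itself lies among the lower ones. ATP6V0E2-AS1 had 1 read with FOSL1 siRNA in each line, against 36 reads with control siRNA in SCC1 and 22 in FaDu. Its ratio was 30.7-fold lower (5.16 to 1245) in SCC1 and 19.9-fold lower (3.21 to 820) in FaDu.

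**Figure D3:**
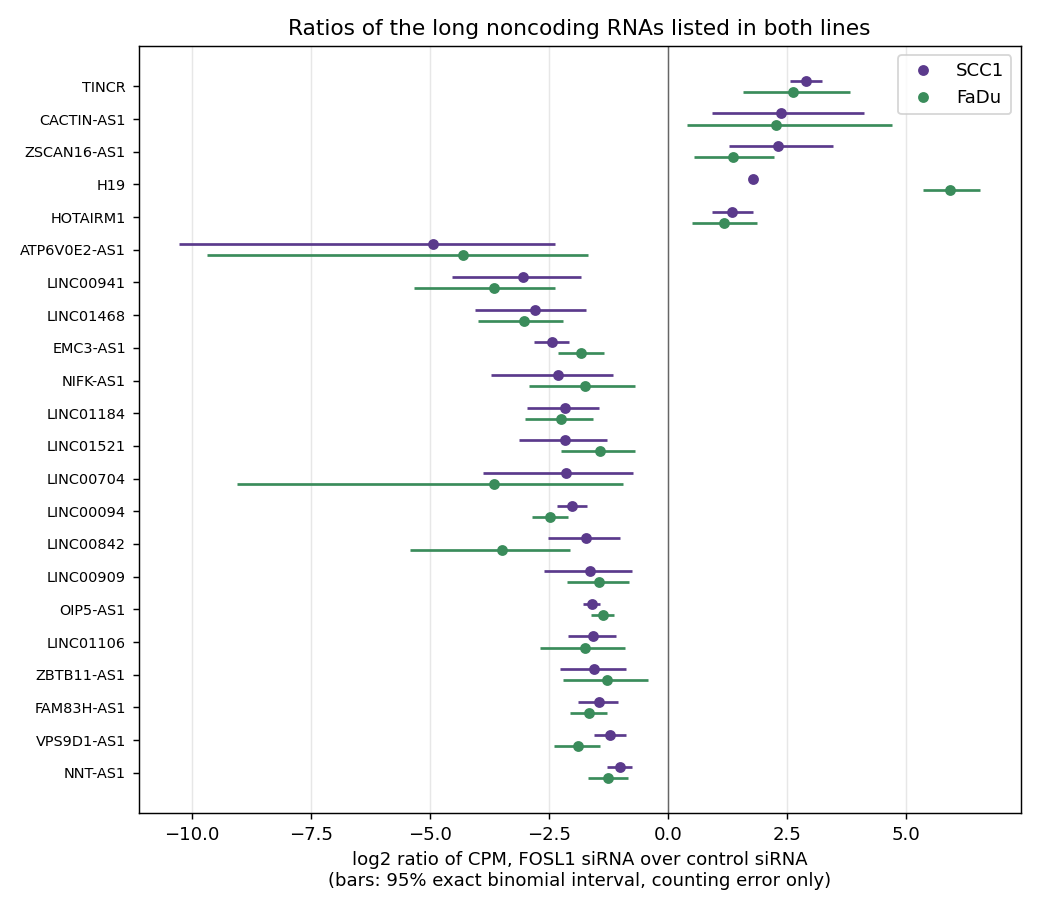
The log2 ratio of CPM, FOSL1 siRNA over control siRNA, of the 22 long noncoding RNAs listed in both lines, with SCC1 as the upper and FaDu as the lower point of each row and bars for the 95% exact binomial interval, which covers counting error only. The intervals overlap between lines for 21 of the 22 and not for H19, where they do not overlap for 22.6% of all 678 genes listed in both lines.

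The promoters of these RNAs were searched for TGANTCA, a loose form of the site that AP-1 binds, in which N is any base. The pattern reads the same on both strands. RefSeq promoter windows (GRCh38.p14), 250 bases before to 50 after the start, were found for 73 of the 111 genes. The motif was in at least 1 window of 6 of the 73, 8.22%, where 9.37% of the 27305 genes in that table had it. A match is no proof of a site, and a window without a match says only that these letters are not in it. Of the 16 RNAs with a window that were lower in both lines, 2 held the motif, LINC01468 and LINC00704, and of the 2 that were higher in both lines with a window, 0 did. LINC00704, which RefSeq calls MANCR, was 4.43-fold lower (1.67 to 14.8) in SCC1 and 12.6-fold lower (1.92 to 535) in FaDu, on 5 reads with FOSL1 siRNA against 26 with control siRNA in SCC1, and 1 with FOSL1 siRNA against 14 with control siRNA in FaDu. LINC00346 in SCC1 and LINC00963 in SCC1 also held it and were lower there, while LINC-PINT and MYLK-AS1 held it and were higher there. The match was TGAGTCA in LINC00963, TGAATCA in MYLK-AS1, and TGATTCA and TGAATCA in LINC-PINT. The 3 windows below belong to RNAs that were lower, each on the minus strand, with the motifs in capitals. The window of LINC01468 is chr10:52455223-52455522, that of LINC00704 is chr10:4678021-4678320 and that of LINC00346, now PRECSIT, is chr13:110870259-110870558.
LINC01468: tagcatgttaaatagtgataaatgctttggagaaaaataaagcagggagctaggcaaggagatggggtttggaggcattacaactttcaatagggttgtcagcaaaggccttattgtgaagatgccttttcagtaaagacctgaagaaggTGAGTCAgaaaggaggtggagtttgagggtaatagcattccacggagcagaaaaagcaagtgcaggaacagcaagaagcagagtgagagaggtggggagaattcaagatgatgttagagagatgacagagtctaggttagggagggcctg
LINC00704: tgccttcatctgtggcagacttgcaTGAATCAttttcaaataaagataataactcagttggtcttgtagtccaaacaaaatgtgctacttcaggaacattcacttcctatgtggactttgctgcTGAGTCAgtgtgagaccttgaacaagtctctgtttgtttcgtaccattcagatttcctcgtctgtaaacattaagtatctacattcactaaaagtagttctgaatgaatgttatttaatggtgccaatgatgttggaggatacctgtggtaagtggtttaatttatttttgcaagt
LINC00346: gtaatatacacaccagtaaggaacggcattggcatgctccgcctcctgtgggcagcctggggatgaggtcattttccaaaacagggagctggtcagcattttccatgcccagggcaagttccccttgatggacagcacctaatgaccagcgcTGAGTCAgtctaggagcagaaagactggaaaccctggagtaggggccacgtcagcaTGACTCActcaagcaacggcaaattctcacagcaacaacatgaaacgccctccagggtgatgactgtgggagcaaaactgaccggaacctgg
LINC01468 has 2 windows in RefSeq, of which the other one, from another start, does not hold the motif. In the window shown, TGAGTCA begins 100 bases before the start. LINC00704 holds TGAATCA from 225 and TGAGTCA from 126 bases before the start, and LINC00346 holds TGAGTCA from 98 and TGACTCA from 42 bases before it. LINC00346 had 4.26 CPM (48 reads) with FOSL1 siRNA and 16.0 CPM (212 reads) with control siRNA in SCC1, 3.76-fold lower (2.74 to 5.26).

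Another 57 long noncoding RNAs were listed in SCC1 alone, 13 higher and 44 lower. LINC00673 had the largest read count of those that were higher, at 29.2 CPM (329 reads) with FOSL1 siRNA and 10.2 CPM (135 reads) with control siRNA, 2.86-fold (2.33 to 3.52). ZFPM2-AS1 was 2.95-fold higher (1.93 to 4.63), LINC00641 2.47-fold higher (1.67 to 3.69) and HOXC13-AS 2.52-fold higher (1.58 to 4.09). LINC-PINT, a p53-induced RNA, was 2.30-fold higher (1.39 to 3.89) on 49 reads with FOSL1 siRNA against 25 with control siRNA. LIMD1-AS1 had 12 reads with FOSL1 siRNA and 0 with control siRNA, at least 4.70-fold higher by a floor of 3 reads per library, and 63.3% of its 50-base words lie opposite to other transcripts, mainly of LIMD1. TONSL-AS1 had 12 reads with FOSL1 siRNA against 3 with control siRNA, a ratio of 4.70 (1.27 to 25.9). The remaining 6 that were higher, ALOX12-AS1, CD27-AS1, LINC00176, MYLK-AS1, UCKL1-AS1 and ZSWIM8-AS1, lay between 1.33 and 2.57 CPM with FOSL1 siRNA. ZSWIM8-AS1 shares 95.3% of its words with other transcripts and is uncertain for that reason.

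Of the 44 that were lower in SCC1 alone, FGD5-AS1 had the most reads, 62.9 CPM (710 reads) with FOSL1 siRNA against 121 CPM (1598 reads) with control siRNA, 1.92-fold (1.75 to 2.10). It was the smallest ratio of the long noncoding RNAs there. After dividing by the median ratio, which itself lies among the lower genes, FGD5-AS1 turned to slightly higher, as did PSMD5-AS1 at 2.04-fold (1.56 to 2.68). LINC00674 had 18.0 CPM (203 reads) with FOSL1 siRNA against 52.7 CPM (698 reads) with control siRNA, 2.93-fold lower (2.50 to 3.44). ARRDC1-AS1 was 2.94-fold lower (2.33 to 3.74) and LINC00958 2.97-fold lower (2.18 to 4.12). NOP14-AS1 had 1.95 CPM (22 reads) with FOSL1 siRNA against 9.97 CPM (132 reads) with control siRNA, 5.11-fold lower (3.24 to 8.43), and PPP3CB-AS1 was 4.81-fold lower (2.70 to 9.19). The lower bounds of these 5 intervals were all above 2. USP46-AS1 was 6.47-fold lower (2.54 to 21.1) on 5 reads with FOSL1 siRNA against 38 with control siRNA. LOXL1-AS1 was 4.0-fold lower (2.17 to 7.93) and NRSN2-AS1 4.05-fold lower (2.15 to 8.29).

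Some of the large ratios in SCC1 rest on very few reads. LINC00312 had 1 read with FOSL1 siRNA and 22 with control siRNA, 18.7-fold lower (3.03 to 773). LINC01116 had 2 reads with FOSL1 siRNA against 25 with control siRNA, 10.6-fold lower (2.66 to 92.8). ATE1-AS1 and CCDC183-AS1 each had 2 reads with FOSL1 siRNA against 14 with control siRNA, 5.96-fold lower (1.37 to 54.1). CARD8-AS1, LINC00471, LINC01547, LINC01605, SLC25A21-AS1 and ZNF561-AS1 had 4 to 6 reads with FOSL1 siRNA against 21 to 31 with control siRNA and lay between 4.26-fold and 4.90-fold lower. Of the 50-base words of ZNF561-AS1, 51.5% are also in other transcripts, mainly on the opposite strand. These 10 RNAs had lower levels in that library, but they are listed because they passed a comparison of the same reads. Little can be said about the size of their ratios.

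The remaining 23 that were lower in SCC1 alone had ratios between 2.12-fold and 3.60-fold. They included BLACAT1, named for bladder cancer, at 3.60-fold (1.94 to 7.19), FOXD2-AS1 at 3.51-fold (2.01 to 6.50), TMPO-AS1 at 3.24-fold (1.96 to 5.59) and FEZF1-AS1 at 2.56-fold (1.22 to 5.86). Of the 50-base words of MORC2-AS1, also among the 23, 55.4% lie opposite to other transcripts, mainly of MORC2. Those that reached 5 CPM in the control library were ASB16-AS1, CTBP1-AS2, IQCH-AS1, LINC00491, LINC00963, LINC01137, LINC01138, RNASEH1-AS1 and TMPO-AS1. The 9 antisense RNAs named head to head in the SCC1 table were all lower, at a median of 2.98-fold, where 59.4% of all listed genes were lower. In FaDu, 3 of 4 such RNAs were lower and ARHGAP5-AS1 was higher, where 57.5% of all listed genes were lower. The 39 other antisense RNAs in SCC1, 12 of them higher and 27 lower, had a median of 3.40-fold.

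Another 32 long noncoding RNAs were listed in FaDu alone, 12 higher and 20 lower. UCA1, first described in urothelial carcinoma, had the most reads among them, with 9.26 CPM (96 reads) with FOSL1 siRNA and 46.4 CPM (532 reads) with control siRNA, 5.0-fold lower (4.02 to 6.29). CCAT1, named for colon cancer, had 3.76 CPM (39 reads) with FOSL1 siRNA against 15.5 CPM (178 reads) with control siRNA, 4.12-fold lower (2.90 to 5.99). LINC00472 had 2.41 CPM (25 reads) with FOSL1 siRNA against 9.85 CPM (113 reads) with control siRNA, 4.08-fold lower (2.63 to 6.57). The lower bounds of all 3 intervals were 2.63-fold or more. The authors' deposited table gave UCA1 an FDR of 0.000564, CCAT1 0.00760 and LINC00472 0.0148. LINC01057, at 3.09 CPM with FOSL1 siRNA against 7.23 CPM with control siRNA, was 2.34-fold lower (1.54 to 3.64). HCP5, transcribed within the HLA region, was 2.82-fold lower (1.60 to 5.19), and SH3PXD2A-AS1 3.89-fold lower (2.10 to 7.75). DLG5-AS1, GAS6-AS1, KDM4A-AS1 and PSMB8-AS1 were between 2.81-fold and 3.43-fold lower, on 5 to 9 reads with FOSL1 siRNA. Of the 50-base words of PSMB8-AS1, 45.0% lie opposite to other transcripts, mainly of PSMB8, so its ratio is also uncertain. LINC01003 was the one higher RNA in FaDu alone that reached 5 CPM, at 10.9 CPM (113 reads) with FOSL1 siRNA against 5.14 CPM (59 reads) with control siRNA, 2.12-fold (1.53 to 2.96).

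Ratios on few reads were more common in FaDu, where 13 of the 54 long noncoding RNAs, 24.1%, had at most 3 reads in 1 library, as had 9.39% of all listed genes. In SCC1 these were 7 of 79, 8.86%, and 5.73%. LINC00707 had 1 read with FOSL1 siRNA and 36 with control siRNA in FaDu, 32.5-fold lower (5.47 to 1319). FUT8-AS1 and SRP14-AS1 each had 1 read with FOSL1 siRNA against 15 with control siRNA, 13.5-fold lower (2.08 to 570.3), and 52.8% of the words of FUT8-AS1 lie opposite to FUT8 and other transcripts. NPPA-AS1, antisense to the natriuretic peptide gene NPPA, had 0 reads with FOSL1 siRNA against 15 with control siRNA, at least 4.52-fold lower by the floor of 3 reads per library. LINC01124 and TSPEAR-AS1 had 2 reads with FOSL1 siRNA against 17 and 16 with control siRNA, and CASC2 had 3 with FOSL1 siRNA against 13 with control siRNA. Among those that were higher, LINC01559 had 13 reads and ZNF436-AS1 16 reads with FOSL1 siRNA, against 3 each with control siRNA. Most of these intervals are wide, so the size of the difference is poorly known.

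The other higher RNAs in FaDu alone had 15 to 43 reads with FOSL1 siRNA. VAC14-AS1 had 2.51 CPM (26 reads) with FOSL1 siRNA against 0.349 CPM (4 reads) with control siRNA, 7.20-fold higher (2.50 to 28.4). P4HA2-AS1 was 4.15-fold higher (1.32 to 17.2), and 63.5% of its 50-base words lie opposite to other transcripts, mainly of P4HA2. The remaining 7, ARHGAP5-AS1, BACE1-AS, DGCR11, HAR1A, LINC00899, LINC01139 and SH3BP5-AS1, were between 2.81-fold and 3.76-fold higher. BACE1-AS is antisense to the gene of the amyloid-processing protease BACE1, and HAR1A lies in a region that changed fast in the human lineage.

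Sense partners were looked up in the same tables. Of the 47 antisense RNAs in SCC1 whose name holds a sense gene, 3 had that gene listed, and of 28 in FaDu, 3 did. The strand setting of the counting is not given in the sources used here. Without it, reads from an antisense RNA and its partner cannot be told apart where they overlap. HOXC13, a transcription factor gene of hair and nail, was 2.93-fold higher (2.27 to 3.81) in SCC1 where HOXC13-AS was 2.52-fold higher. NNT, the mitochondrial transhydrogenase gene, was 2.12-fold lower (1.87 to 2.42) where NNT-AS1 was 2.02-fold lower. TONSL, a gene of replication fork repair, was 2.10-fold lower (1.90 to 2.33) where TONSL-AS1 was higher. In FaDu, ITGB2, a leukocyte integrin gene, was 3.52-fold lower (2.80 to 4.46) beside ITGB2-AS1 at 5.55-fold lower (2.47 to 14.6). FUT8, the core fucosyltransferase gene, was 2.27-fold lower (2.02 to 2.56) beside FUT8-AS1, and the lactate transporter gene SLC16A1 2.13-fold lower (2.02 to 2.24) beside SLC16A1-AS1 at 2.43-fold lower (1.34 to 4.62). In 5 of these 6 pairs the antisense RNA and its partner had the same direction, and TONSL-AS1 with TONSL had opposite ones.

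By the gene order of RefSeq, the next protein-coding gene on each side of a long noncoding RNA, and any that it overlaps, gave 211 pairs in SCC1 and 143 in FaDu. Distance was neither limited nor measured, so a gene called beside an RNA is next in order and need not be close. The neighbour was listed in 16 pairs in SCC1, 7.58%, and in 13 in FaDu, 9.09%. The deposited FDR values imply 13796 genes tested per line, of which 13.8% are listed in SCC1 and 11.2% in FaDu, but a neighbour need not have been tested. These pairs include the 6 sense partners above. RefSeq places the readthrough gene INS-IGF2 next to H19, so IGF2, which was listed as higher in SCC1, is not among them. The direction was the same in 11 of the 16 pairs in SCC1 and in 11 of the 13 in FaDu. Of the long noncoding RNAs 77.2% were lower in SCC1 and 68.5% in FaDu, as were 59.4% and 57.5% of all listed genes. Unrelated pairs would therefore often have the same direction too, and this holds for the sense partners as well. The pair of LINC01468 and DKK1, the gene of a secreted WNT antagonist, was lower in both lines. DKK1 had 57.5 CPM with FOSL1 siRNA and 257 CPM with control siRNA in SCC1, 4.47-fold lower (4.11 to 4.87), and 28.3 CPM with FOSL1 siRNA and 116 CPM with control siRNA in FaDu, 4.10-fold lower (3.61 to 4.67). EMC3-AS1 and the DNA repair gene FANCD2 were also lower together, FANCD2 being 3.84-fold lower (3.37 to 4.39) in SCC1 and 2.44-fold lower (2.24 to 2.66) in FaDu. Of the 50-base words of EMC3-AS1, 4.03% are also in other transcripts of the same strand, mainly of FANCD2. HOXA2, a homeobox gene beside HOTAIRM1, was 5.96-fold lower (2.33 to 19.5) in SCC1, where HOTAIRM1 was higher.

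For other pairs, the RNA and its neighbour were listed together in 1 line only. In FaDu, KLF6, a transcription factor gene, was 3.26-fold lower (2.72 to 3.93) beside LINC00704, and F3, the tissue factor gene, was 2.0-fold lower (1.95 to 2.06) beside LINC01057. LINC00704 had 1 read with FOSL1 siRNA against 14 with control siRNA in FaDu. In SCC1, SOX9 was 5.39-fold lower (3.67 to 8.14) beside LINC00673, which was higher. MICB, a ligand of a natural killer cell receptor, was 3.64-fold higher (3.28 to 4.04) in FaDu beside HCP5, which was lower. CSF2, a cytokine gene, was 6.45-fold lower (3.67 to 12.2) there beside P4HA2-AS1, which was higher. F3 and SOX9 were also listed as lower in the other line, and MICB as higher, while the RNA beside each was not listed there. LINC00704 was listed in both lines, but KLF6 was not. Adjacent genes thus had the same direction in some pairs and opposite ones in others.

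**Figure D4:**
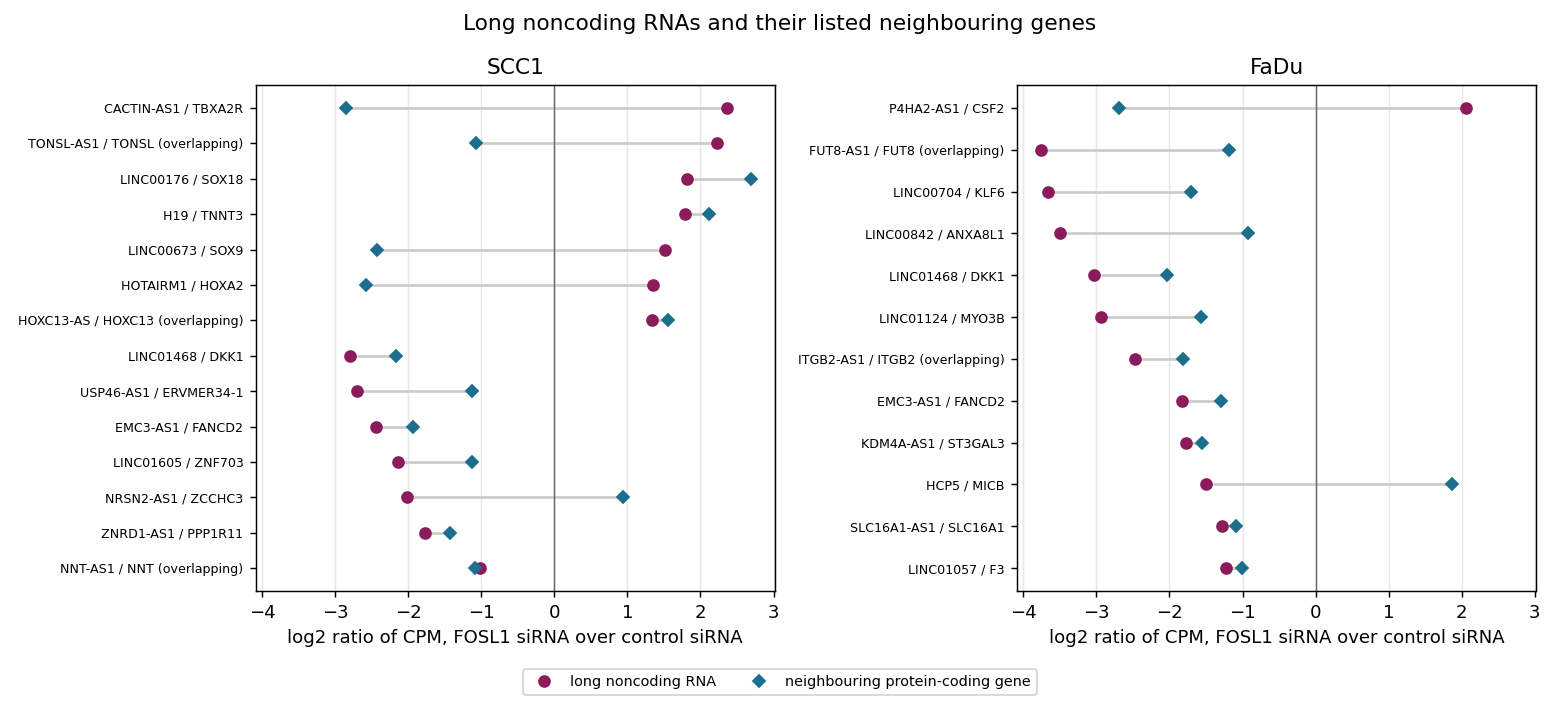
Each row is a long noncoding RNA (circle) and a neighbouring or overlapping protein-coding gene (diamond) that was listed in the same line, with the log2 ratio of CPM of FOSL1 siRNA over control siRNA on the x axis, SCC1 on the left and FaDu on the right, leaving out a pair with a neighbour at 0 reads and pairs not reported here. Circle and diamond lie on the same side of 0 for the rows of LINC01468 with DKK1 and EMC3-AS1 with FANCD2 in both lines, and on opposite sides for LINC00673 with SOX9 and for HCP5 with MICB.

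A set of 54 known noncoding RNAs was drawn up by symbol, some of them also taken by the name rule. In SCC1, 3 were higher, 3 lower and 48 not listed, and in FaDu 2 were higher, 6 lower and 46 not listed. Thus 11.1% were listed in SCC1 and 14.8% in FaDu, near the shares of all tested genes, but an RNA of the 54 need not have been tested. Listed ones outside the name rule included MIR205HG, the host gene of the epithelial microRNA miR-205. It was 3.31-fold lower (2.84 to 3.88) in SCC1 and 4.36-fold lower (3.43 to 5.60) in FaDu. TERC, the RNA of telomerase, had 29 reads with FOSL1 siRNA and 0 with control siRNA in SCC1, at least 11.3-fold higher by the floor of 3 reads per library. Its FaDu levels were 19.9 CPM with FOSL1 siRNA and 2.96 CPM with control siRNA, 6.71-fold higher (4.65 to 9.95). Each of the 2 RNAs thus had the same direction in both lines. In SCC1 alone, MIR31HG was 2.01-fold lower (1.56 to 2.60) and SNHG16 1.92-fold higher (1.77 to 2.08), and in FaDu alone MIR22HG was 2.53-fold lower (2.03 to 3.17). MALAT1, NEAT1, GAS5 and HOTAIR were in neither table.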

How the data were processed

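Per the labels' protocols, total RNA went into RNA-seq libraries (KAPA), and TopHat, Cufflinks and genome build hg18 are named in the submitters' processing notes, with roles and versions not given in the sources used here. The authors deposited 1 table per line with CPM of 2 libraries, a signed linear fold given as a score, a p-value and an FDR. What the 2 at the end of the SCC1 control column's name stands for is not given in the sources used here. Whole reads were recovered from the CPM of each library, in which 100% of the deposited values lay within 0.01 of a step of 1 read. Library sizes are in the report. Positions in the deposited build are not printed, since the annotation used is of GRCh38.

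Folds are ratios of CPM with no pseudocount, and a gene at least 1.5-fold apart was counted. Every listed long noncoding RNA reached this. Intervals are exact binomial (Clopper-Pearson) at 95% confidence, and against 0 reads the fold is at a floor of 3 reads per library. The members, lists and alternatives were chosen with earlier results of these data known. The text names FOSL1, H19, TINCR, RNAs listed in both lines, of at least 4-fold, reaching 5 CPM or with at most 3 reads in a library, sense genes, and listed members of the lists. Neighbouring genes, and a few other RNAs named to complete a group, were chosen after their values were seen. A few genes that are in the counts are not reported here by name. Sequence sharing was the share of each gene's 50-base words found in transcripts of other genes in GENCODE 29, which holds 106 of the 111 genes. For 33 of the 106, at least 10% of these words lie opposite to other transcripts, and the text gives this share for only some of them.

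A likelihood ratio test of edgeR 4.0.16 in R 4.3.3 on the recovered reads at an assumed dispersion of 0.05 gave p-values within 1% of the authors' deposited p-value for each of the 1903 genes of SCC1 and the 1545 of FaDu, and called all of them at an unadjusted p-value of 0.05. It compares 2 libraries. The recovery of reads, the intervals and this test were tested on simulated data. Python 3.11.15 was used with SciPy 1.17.1, pandas 2.3.3, matplotlib 3.10.9 and numpy 2.4.6.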

Additional observations from a re-analysis of the deposited data

How the results depend on the processing

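No paired analysis was possible because the groups share only 1 replicate number, and a fit with the line as a block was not made, since genes listed in both lines had been selected on the same difference. The counts reported were 18 higher and 61 lower long noncoding RNAs in SCC1, 17 and 37 in FaDu, and 22 with the same direction in both lines. They stayed within 1.5 times of this with a fold of 2, pseudocounts of 1 and 0.1 CPM and a wider rule. The same held, chosen after seeing the data, without genes of at most 3 reads in a library and without those sharing 50% of their sequence. A minimum of 1 CPM, rows of 1 symbol summed and the rule by names only could not change the counts. Every listed gene reached 1 CPM, no symbol was repeated, and each gene taken by its symbol was also taken by its name. A fold of 2 could leave out FGD5-AS1 alone, at 1.92-fold in SCC1. It could change no count in FaDu, where the smallest fold was 2.12. A fold of 4 gave 5 and 23 in SCC1, 7 and 17 in FaDu, and 8 shared. A minimum of 5 CPM gave 7 and 28, 3 and 15, and 10. The authors' FDR under 0.05 gave 5 and 19, 3 and 17, and 8, and their p-value under 0.01 gave 10 and 40 in SCC1 and 5 higher in FaDu. Dividing by the median ratio of listed genes gave 35 lower in SCC1 and 14 shared, and turned FGD5-AS1 to a log2 ratio of 0.11, NNT-AS1 to 0.036 and PSMD5-AS1 to 0.025 in SCC1. This scaling could not change the counts of higher long noncoding RNAs. The count test, chosen after seeing the data, gave 5 and 26, 5 and 20, and 9 at a dispersion of 0.16, and 2 and 4, 1 and 9, and 2 at 0.4. It called 25.4% of all listed genes in SCC1 and 29.8% in FaDu at 0.16, and 5.68% and 8.03% at 0.4. Of the 131 single ratios with an interval, 8 left it with a pseudocount of 1 CPM and 67 kept their sign but left it with the scaling. Few reads limit most ratios.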
